A study of Cricetiscus sungorus with 24 samples.

Results

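The genes described here build, anchor and remodel the extracellular matrix of the kidney. They were taken by symbol: every collagen chain, laminin chain, matrix metalloproteinase (MMP), ADAMTS proteinase and tissue inhibitor of metalloproteinases (TIMP) among the listed genes, together with Fn1, Nid1, Nid2, Hspg2, Sparc, Dcn, Lum, Bgn, Fbn1, Lox, Postn, Tgfb1, Tgfbi and Ccn2 where they were listed. That gave 84 of 15960 genes, all 84 with counts in experiment 2 and 46 of them also in experiment 1. Each gene is represented, within each experiment, by its mouse transcript with most counts.

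The study sequenced kidney cDNA of adult Djungarian hamsters (Phodopus sungorus), a seasonal rodent, on nanopore flow cells, 1 for each experiment. Experiment 1 held males. The LP group (n = 4) stayed in a long photoperiod of 16 h of light per day, and the SP12wk and SP28wk groups (n = 4 each) spent 12 and 28 weeks in a short photoperiod of 8 h of light. Experiment 2 held females that had all spent 8 weeks in the same short photoperiod. The SAL group (n = 6) was injected with vehicle, a mix of dimethyl sulfoxide and saline, on 3 days, and the PRL group (n = 6) with 18 µg of ovine prolactin in that vehicle on the same schedule. No females in long days were sequenced, so PRL was compared with short-day controls alone. RNA came from a transverse piece of the whole kidney, and in such bulk tissue fewer cells of a type and less RNA per cell cannot be told apart.

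The renal matrix has 2 compartments. Basement membranes under the tubules and around the glomerular capillaries are sheets of type IV collagen and laminin, held together by nidogen and perlecan, while the thin interstitium between tubules holds fibrillar collagens, fibronectin and small proteoglycans made mainly by fibroblasts. MMP and ADAMTS enzymes cut these proteins, TIMPs block the enzymes, and an excess of interstitial matrix is the hallmark of renal fibrosis. Prolactin falls in short days in this species. The study reported pituitary Prl mRNA of its males as lower in SP12wk, whereas SP28wk was back near LP, so SP28wk is not a group with low Prl. The comparisons address whether the season or the hormone altered these transcripts.

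Libraries of experiment 1 held 15687 to 57585 counts, and those of experiment 2 held 174053 to 756523. A single count was thus worth 17.4 to 63.7 CPM in experiment 1 and 1.32 to 5.75 CPM in experiment 2, where CPM is a gene's count scaled to the library total. The 6 proximal tubule markers analysed here, of 7 listed, summed to 1204 to 2916 CPM per library in experiment 1 and to 759 to 1490 CPM in experiment 2. Fibroblast, pericyte and smooth muscle markers, the cells that make interstitial matrix, summed to 128 to 199 CPM in SAL and 181 to 207 CPM in PRL. In the males these sums ran from 47.0 to 444 CPM for LP, from 100.4 to 226 CPM for SP12wk and from 114 to 452 CPM for SP28wk. Of these markers 3 were tested in SP28wk against SP12wk, 2 with a higher and 1 with a lower fitted value. Tagln, a smooth muscle gene, had the smallest p of the 3. It was at 172 ± 87.1 CPM in SP28wk and 57.6 ± 39.5 CPM in SP12wk (SD, n = 4), a log2 fold change of 1.65 (SE 0.73, adjusted p = 0.732 by edgeR). Podocyte markers summed to 27.4 to 54.1 CPM in SAL and 17.2 to 56.8 CPM in PRL. Fat markers ranged from 39.5 to 242 CPM in SAL and from 78.0 to 298 CPM in PRL. Their part in the values below was not tested.

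Matrix transcripts were a small share of kidney RNA. In experiment 1 they took 0.172% to 0.426% of the counts of an LP library, 0.141% to 0.343% in SP12wk and 0.162% to 0.289% in SP28wk. The group means were 0.260% ± 0.117 (SD, n = 4), 0.224% ± 0.0884 and 0.230% ± 0.0524, so the 3 groups overlapped over most of their range. In experiment 2 the share was 0.0949% to 0.149% in SAL and 0.112% to 0.147% in PRL, with means of 0.115% ± 0.0199 (SD, n = 6) and 0.128% ± 0.0158. The SAL and PRL ranges overlapped as well.

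**Figure D1:**
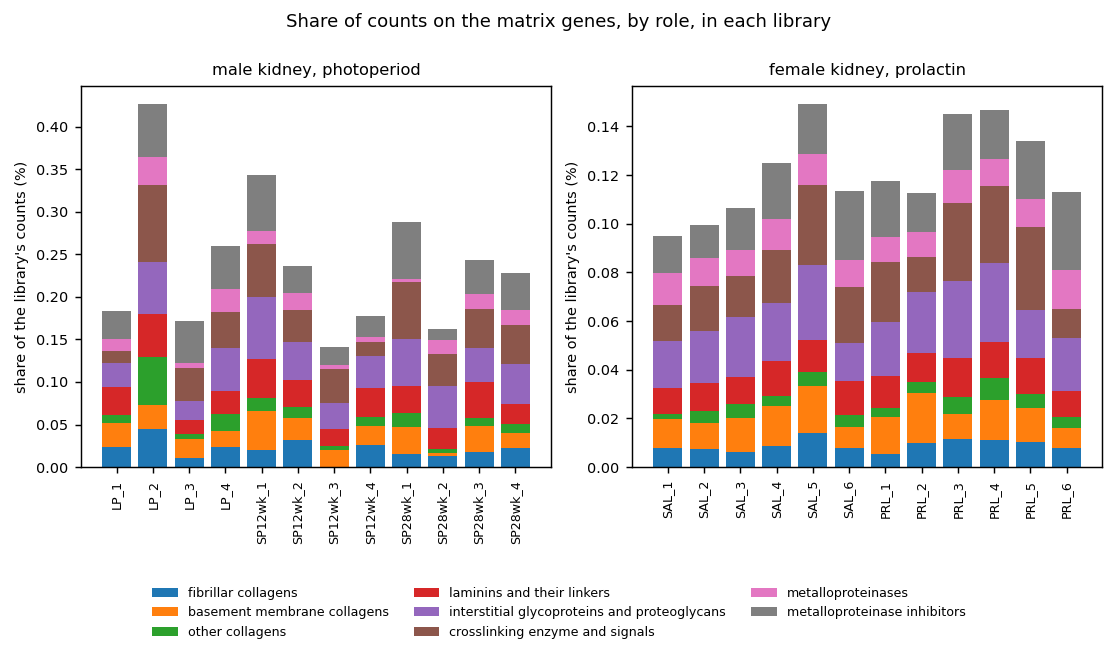
Share of each library's counts (%, y axis) on the 84 matrix genes, stacked by role, for the 12 male libraries (left, LP, SP12wk and SP28wk) and the 12 female libraries (right, SAL and PRL); the y scales differ. LP_2 has the highest bar, 0.426%, and no group stands clear of the others in either experiment.

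A few genes carried most of this signal. In experiment 2 the 84 genes held 5344 counts, of which 2674 (50.04%) fell on 5 genes, Ccn2, Timp3, Sparc, Dcn and Col1a2. In experiment 1 the 46 genes held 753 counts, and 57.5% of them fell on the 5 genes with most. At the other end, 38 of the 84 genes in experiment 2 and 30 of the 46 in experiment 1 had 10 counts or fewer over all 12 libraries. In experiment 2, 22 of the genes shared their counts in every library with at least 1 other gene, none of them with more than 4 counts in total. Counts were not divided by transcript length, so an order of genes below is an order of reads, and it also depends on how well hamster reads matched the mouse transcript.

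No matrix gene passed the test in any comparison. With edgeR's quasi-likelihood test and Benjamini-Hochberg adjustment over all genes tested, 0 of 26 matrix genes with enough counts were called when SP12wk was set against LP, when SP28wk was set against SP12wk or against LP, or in the F test over the 3 groups, beside 0.0197%, 0.138%, 0.216% and 0.275% of all 5086 genes. In PRL against SAL, 0 of 50 were called, beside 0.0% of all 10696 genes. DESeq2 called 0 matrix genes in each comparison, although it gave no adjusted p for 46 of the 50 in experiment 2. Without adjustment, edgeR gave p under 0.05 to 0, 2, 0 and 0 matrix genes in experiment 1 (7.26%, 6.1%, 8.57% and 7.47% of all genes), and to 2 in PRL against SAL (4.88% of all genes). The 2 in the males were lower in SP28wk than in SP12wk (1.49% of all genes) and the 2 in the females higher in PRL (2.54% of all genes). DESeq2 gave such a p to 0 genes in each comparison of males and to 2 in PRL against SAL.

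The spread of the genes was centred near 0 in each comparison. The median log2 fold change of the matrix genes was 0.00 in SP12wk against LP (0.00 over all genes), -0.05 in SP28wk against SP12wk (0.16 over all genes) and 0.02 in SP28wk against LP (0.18 over all genes). Without the genes at 0 in a whole group, Timp1 in LP and Lamc1 in SP28wk, the 3 medians were 0.00, -0.03 and 0.02. In PRL against SAL the median was 0.16 (0.03 over all genes), with 31 genes higher and 19 lower. For no matrix gene did the CPM ranges of the groups stay apart, beside 2.67%, 3.38% and 3.3% of all genes in the 3 comparisons of experiment 1 and 0.14% in PRL against SAL. At shares this small, 0 of 26 or 0 of 50 genes does not set the matrix genes apart from the rest.

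Depth set how much could be said about each gene. In PRL against SAL the 95% interval of the log2 fold change lay within -1 and 1, that is within a 2-fold change either way, for 16 of the 50 genes (34.0% of all genes). These were Adamts1, Ccn2, Col1a2, Col3a1, Col4a1, Col4a3, Dcn, Fn1, Lamb1, Lamb2, Mmp24, Nid1, Sparc, Timp1, Timp2 and Timp3, which include every role below except the other collagens. In experiment 1 no matrix gene reached that precision, and the interval lay within -2 and 2 for 6, 7 and 7 of the 26 genes.

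Fibrillar collagens, the tensile fibers of the interstitium, had 4 of 7 listed genes tested in PRL against SAL. Col1a2, the α2 chain of type I collagen, ranged in SAL from 27.4 to 79.6 CPM (median 47.3) and in PRL from 30.1 to 69.0 CPM (median 46.3). The PRL libraries lay wholly inside the SAL range, and the log2 fold change was -0.18 (SE 0.27). Col1a1, the α1 chain of the same molecule, had 3.20 to 24.5 CPM in SAL (median 6.60) and 3.35 to 23.0 CPM in PRL (median 20.5). Its ranges were nearly equal although the medians were not, and the log2 fold change of 0.54 (SE 0.47) had an interval from -0.41 to 1.5. Col3a1, the type III collagen that runs beside type I, had a median of 17.6 CPM in SAL (6.40 to 29.7) and 21.4 CPM in PRL (11.7 to 31.7), with a log2 fold change of 0.17 (SE 0.36). Col5a1, which nucleates type I fibrils, had 17 counts in SAL and 11 in PRL, a log2 fold change of -0.77 (SE 0.56).

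Type IV collagen is the network former of basement membranes. Col4a1, one of the chains found in every basement membrane, ranged from 22.4 to 64.3 CPM in SAL (median 40.8) and from 23.0 to 66.1 CPM in PRL (median 33.8). The ranges coincided, and the log2 fold change was -0.03 (SE 0.30). Its partner chain Col4a2 was far scarcer in reads, with 43 counts against 195 for Col4a1 over the 12 libraries. Col4a3 and Col4a4, chains of the mature glomerular membrane that are altered in Alport syndrome, were about as frequent in reads as Col4a1, with 152 and 154 counts. Col4a3 had a median of 33.7 CPM in SAL (16.0 to 43.3) and 31.0 CPM in PRL (14.2 to 48.9). Col4a4 had a median of 23.1 CPM in SAL (16.2 to 42.8) and 35.9 CPM in PRL (17.0 to 63.2), and its log2 fold change of 0.47 (SE 0.32) had an interval from -0.17 to 1.12. For both chains the groups overlapped. Col4a5, the third chain of that network, had 20 counts in each group.

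Other collagens were close to the limit of the method. Col6a3, of the beaded type VI filaments, had the most counts among them, from 8.11 to 33.8 CPM in SAL (median 22.6) and 5.67 to 32.2 CPM in PRL (median 17.8), with a log2 fold change of -0.59 (SE 0.38). Col12a1, which decorates type I fibrils, went from 0 to 13.7 CPM in SAL (median 7.79) to 6.70 to 23.0 CPM in PRL (median 14.5), a log2 fold change of 0.86 (SE 0.52). The groups overlapped for both genes, and both adjusted p by edgeR were 0.999. Col8a2, a short-chain collagen, had 6 counts in SAL and 2 in PRL, a ratio of 0.304 (95% counting interval 0.0300 to 1.70). Of the 15 genes in this role, 7 were tested, 5 with a higher and 2 with a lower fitted value in PRL, and 0 were called.

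Laminins are trimers of an α, a β and a γ chain that seed basement membranes. Reads of Lamb1, a β chain, were the most frequent, at 24.5 to 52.0 CPM in SAL (median 37.1) and 19.9 to 55.2 CPM in PRL (median 33.4), and the log2 fold change was -0.20 (SE 0.29). Lamb2, the β chain of the mature glomerular membrane, had a median of 18.5 CPM in SAL (2.70 to 36.7) and 21.8 CPM in PRL (11.5 to 32.2). The γ chain Lamc1, shared by most laminins, had a median of 13.1 CPM in SAL (5.20 to 28.8) and 11.9 CPM in PRL (5.67 to 18.4). The linker Nid1, nidogen-1, which ties laminin to type IV collagen, had a median of 24.4 CPM in SAL (16.0 to 37.6) and 31.6 CPM in PRL (18.4 to 47.4), with a log2 fold change of 0.16 (SE 0.32). The groups overlapped for all 4 genes.

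Lama1, the α1 chain, had the smallest p of the matrix genes in PRL against SAL. It was counted in 2 of 6 SAL libraries, with 1 count each in SAL_2 and SAL_3, and in 4 of 6 PRL libraries, with 2, 6, 3 and 2 counts in PRL_1, PRL_2, PRL_5 and PRL_6. PRL_3 and PRL_4 had none, as did 4 SAL libraries, so the groups overlapped at 0. The summed counts, 13 in PRL and 2 in SAL, gave a ratio of 5.93 per library total (95% counting interval 1.34 to 54.1). The p by edgeR was 0.0200, and 0.839 after adjustment.

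The interstitial glycoproteins and proteoglycans held the most counts in the female kidney, 1067 over 8 genes. Sparc, a collagen-binding secreted protein, ranged from 62.4 to 147 CPM in SAL (median 78.6) and from 40.2 to 134 CPM in PRL (median 103), and its log2 fold change was 0.07 (SE 0.26). Dcn, decorin, a proteoglycan that binds collagen fibrils, ranged from 28.8 to 132 CPM in SAL (median 87.9) and from 63.4 to 123 CPM in PRL (median 88.6), a log2 fold change of 0.02 (SE 0.26). Fn1, fibronectin, had a median of 31.6 CPM in SAL (18.2 to 42.8) and 33.0 CPM in PRL (25.5 to 59.8), a log2 fold change of 0.16 (SE 0.30). The groups overlapped for each of the 3. Bgn, Fbn1, Lum, Postn and Tgfbi had 9 to 30 counts each in all, and the fitted value was higher in PRL for 7 of the 8 genes and lower for Lum, with 0 called.

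Ccn2, connective tissue growth factor, a secreted matrix protein induced by TGF-beta and by stretch, had more counts than any other matrix gene in both experiments. In SAL it ranged from 143 to 327 CPM (median 196) and in PRL from 119 to 333 CPM (median 278). The PRL group held both the lowest and the highest library, and the log2 fold change was 0.11 (SE 0.23, interval -0.37 to 0.58). Tgfb1, the ligand itself, had 1 count in the 12 female libraries and none in the males, and Lox, the enzyme that crosslinks collagen, had 8 counts in SAL and 6 in PRL. Lox had no count among the 320310 of experiment 1, which still allows 3 counts at that depth.

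**Figure D2:**
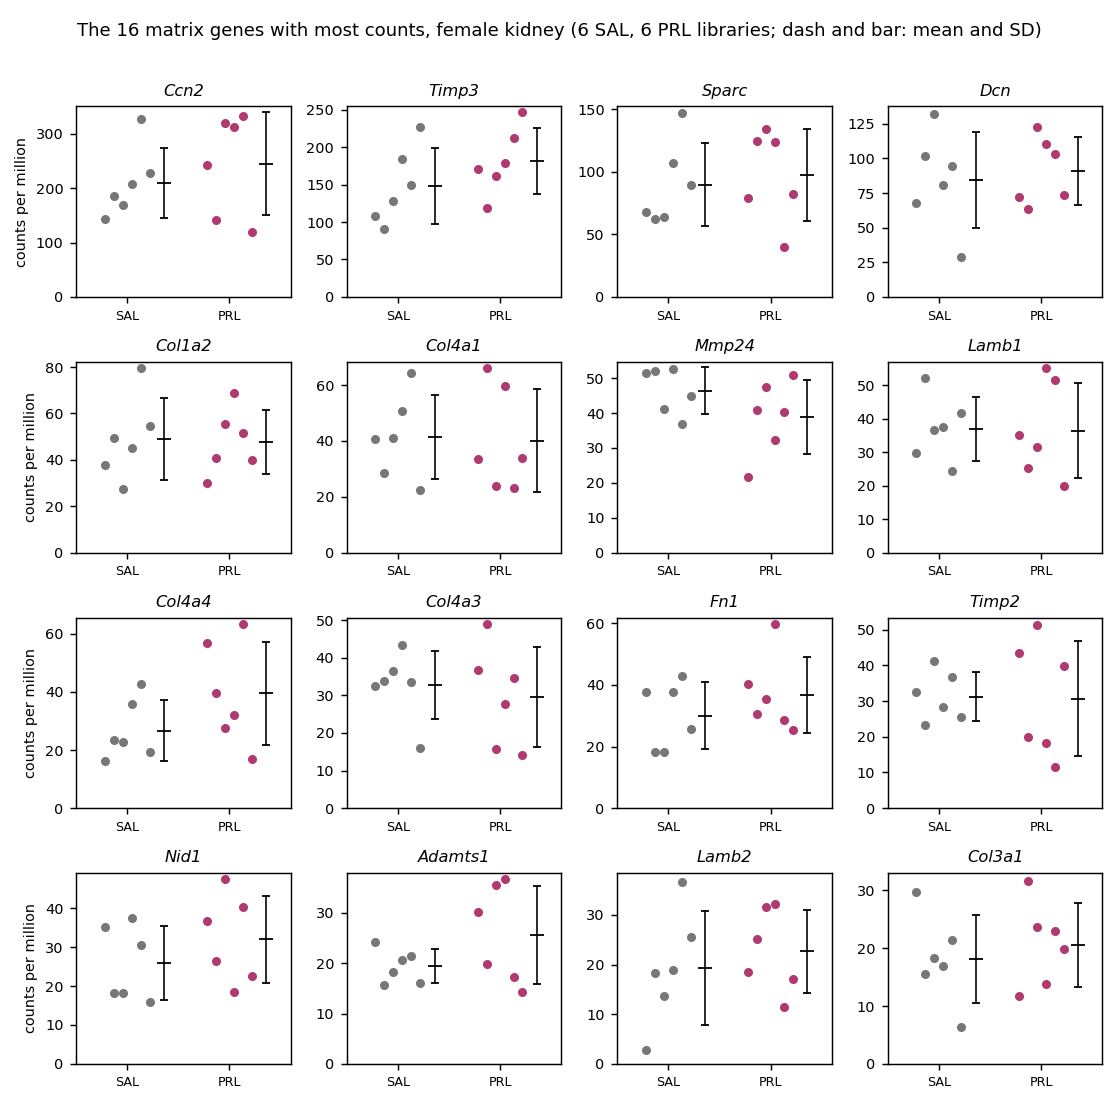
CPM (y axes, each from 0) in the 6 SAL and 6 PRL libraries of the 16 matrix genes with most counts in the female kidney; points are libraries, and the dash with its bar is the group mean with SD. The SAL and PRL points overlap in every panel, and Ccn2 in PRL falls both below and above all SAL libraries.

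The inhibitors were better represented than the enzymes they block. Timp3, the matrix-bound inhibitor, had 717 counts in experiment 2 and was the second gene by counts in both experiments. It ranged from 91.0 to 227 CPM in SAL (median 139) and from 119 to 247 CPM in PRL (median 175), and the log2 fold change of 0.20 (SE 0.24) had an interval from -0.28 to 0.67. Timp2 had a median of 30.3 CPM in SAL (23.4 to 41.1) and 29.8 CPM in PRL (11.5 to 51.4), with a wider scatter in PRL. Timp1, the inducible inhibitor, had a median of 18.0 CPM in SAL (4.57 to 28.8) and 17.1 CPM in PRL (4.60 to 31.2). Their log2 fold changes were 0.00 (SE 0.31) and 0.03 (SE 0.40), and the groups overlapped for all 3 genes. Timp4 had 4 counts.

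Of 26 listed MMP and ADAMTS genes, 10 had enough counts in experiment 2 to be tested, and most of the rest had a few reads. Mmp24, a membrane-type MMP, held 190 of the 535 counts of this role. It ranged from 36.7 to 52.7 CPM in SAL (median 48.1) and from 21.8 to 51.0 CPM in PRL (median 40.6). The highest library of each group was at nearly the same level, and the log2 fold change was -0.35 (SE 0.27, interval -0.90 to 0.20). Adamts1, a proteoglycan-cutting enzyme, had a median of 19.5 CPM in SAL (15.6 to 24.3) and 25 CPM in PRL (14.2 to 36.8), with PRL spreading beyond SAL on both sides. The gelatinases Mmp2 and Mmp9, known from renal fibrosis, had 3 and 2 counts over the 12 libraries. No source used here says whether the counting used strand, and reads of Timp3, which lies inside an intron of Syn3 on the other strand, cannot be told apart from antisense reads if it did not.

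Mmp3, stromelysin-1, had the second smallest p in PRL against SAL. SAL_1 held 1 count and SAL_6 held 2, with none in the other SAL libraries, while PRL_1, PRL_2, PRL_3, PRL_5 and PRL_6 held 3, 2, 1, 1 and 8 counts and PRL_4 none. The groups overlapped, and PRL_6 held 8 of the 15 PRL counts. The ratio of the summed counts, 15 against 3, was 4.56 (95% counting interval 1.29 to 24.6). The p by edgeR was 0.0308, and 0.981 after adjustment. Without PRL_6 the p was 0.242 and the log2 fold change 1.06, against 1.94 with it.

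**Figure D3:**
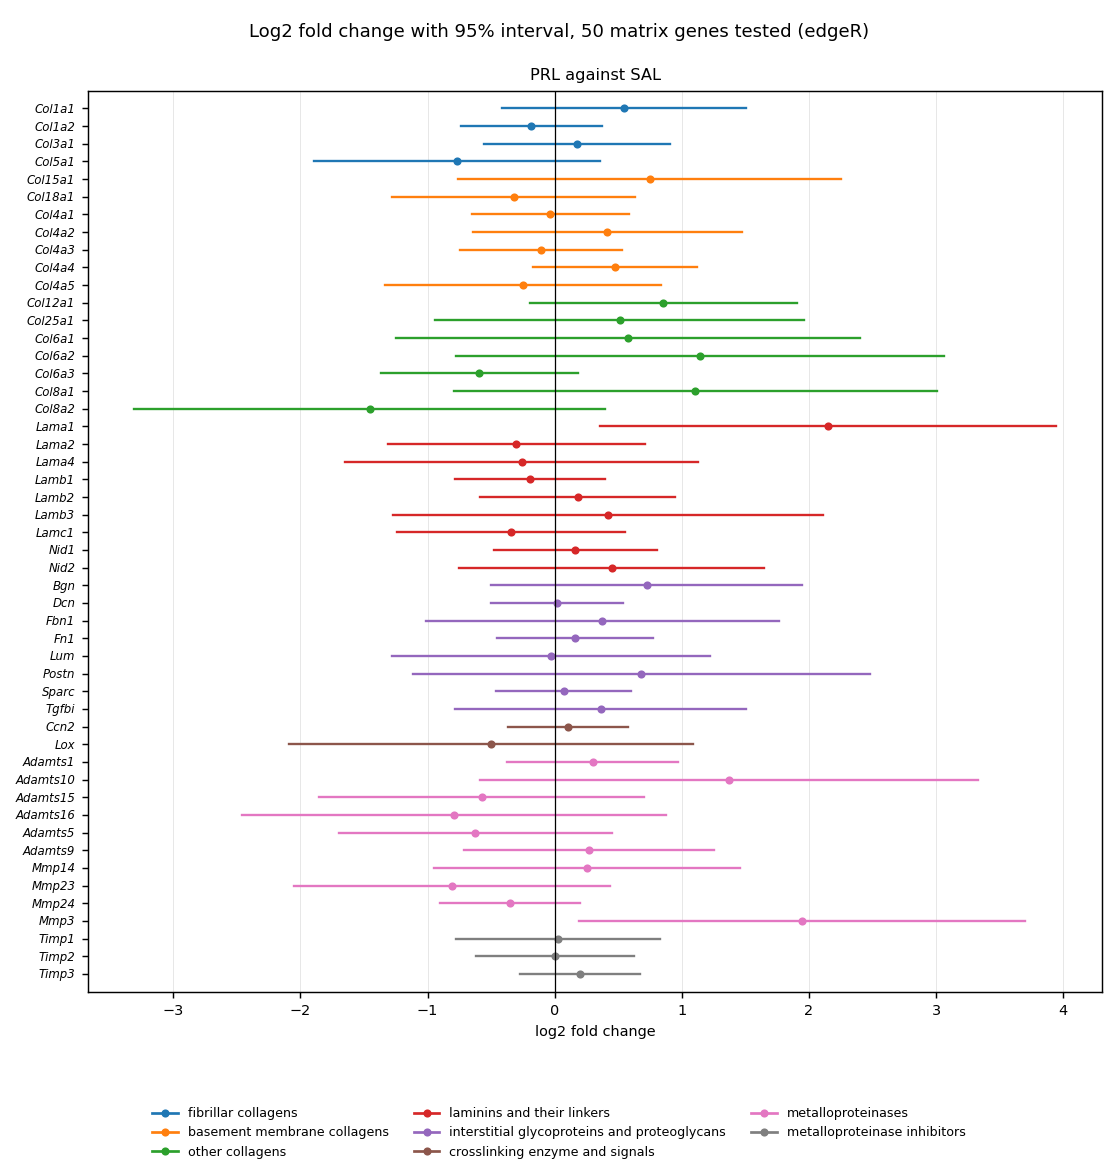
Log2 fold change of PRL against SAL (x axis) with its 95% interval for the 50 matrix genes tested by edgeR, ordered and coloured by role. Intervals of Lama1 and Mmp3 lie above 0 before adjustment, and those of 16 genes lie within -1 and 1.

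In the males the 26 tested genes were followed across the 3 groups. Ccn2 was at 141, 897, 388 and 427 CPM in LP_1 to LP_4, at 613, 382, 402 and 169.6 CPM in SP12wk_1 to SP12wk_4 and at 672, 373, 457 and 452 CPM in SP28wk_1 to SP28wk_4. LP held both the lowest and the highest library, and the log2 fold changes were -0.02 (SE 0.52) in SP12wk against LP, 0.51 (SE 0.50) in SP28wk against SP12wk and 0.49 (SE 0.50) in SP28wk against LP. Sparc was at 188, 449, 0 and 272 CPM in LP, at 286, 255, 201 and 254 CPM in SP12wk and at 356, 249, 171 and 174 CPM in SP28wk. The SP12wk libraries were the tightest, and LP_3 had no count, where 3 counts would be 166 CPM.

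Timp3 was at 329, 561, 499 and 466 CPM in LP, at 654, 191, 151 and 198 CPM in SP12wk and at 553, 124, 314 and 365 CPM in SP28wk. SP12wk_1 was the highest of the 12 libraries, and the other 3 of its group were below all LP libraries. The log2 fold change of SP12wk against LP was -0.39 (SE 0.53, adjusted p = 0.914 by edgeR), and without SP12wk_1 it was -1.11 (adjusted p = 0.617 by edgeR). In SP28wk against SP12wk it went likewise from 0.33 to 1.02, with an adjusted p by edgeR of 0.922. One library thus decided the size of both differences, and neither was called with or without it.

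Col4a1 and Nid1 were each counted in 11 of 12 male libraries, and Col4a2, Col4a4, Col4a5 and Nid2 in 2 to 4. Col4a1 was at 282, 224, 166 and 38.8 CPM in LP, at 204, 191, 151 and 169.6 CPM in SP12wk and at 237, 0, 171 and 156 CPM in SP28wk. All SP12wk libraries lay inside the LP range, and the log2 fold change was 0.24 (SE 0.66). Nid1 was at 141, 168, 55.5 and 194 CPM in LP, at 204, 127, 0 and 141 CPM in SP12wk and at 237, 124, 257 and 156 CPM in SP28wk. The groups overlapped, and SP28wk against SP12wk gave a log2 fold change of 0.77 (SE 0.64, adjusted p = 0.980 by edgeR) and SP28wk against LP one of 0.75 (SE 0.64). Nid2, the second nidogen, had 3 counts in LP, 1 in SP12wk and 2 in SP28wk.

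Laminin chains gave the only unadjusted p values under 0.05 in the males, both in SP28wk against SP12wk and both from very few reads. Lamc1 had 1 count in each of SP12wk_1, SP12wk_2 and SP12wk_3 and in LP_3 and LP_4, and none in SP28wk. Its p by edgeR was 0.0330, and 0.738 after adjustment. Both groups were at or under 3 counts, so no fold is given. Lama2, the α2 chain, had 2, 0, 1 and 3 counts in SP12wk, 1 count in LP_1 and 1 in SP28wk_3. The ratio of SP12wk to LP was 5.21 (95% counting interval 0.632 to 239.5), and that of SP28wk to SP12wk was 0.112 (95% counting interval 0.00244 to 0.924). Here the p by edgeR was 0.0403, and 0.778 after adjustment. The groups overlapped at 0 for both genes.

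Fn1 was counted in 11 of 12 male libraries. It was at 47.0, 112, 111 and 155 CPM in LP, at 123, 127, 100.4 and 0 CPM in SP12wk and at 79.0, 207, 143 and 156 CPM in SP28wk. The SP28wk libraries reached higher than the others but began inside them, with a log2 fold change of 1.08 (SE 0.73, adjusted p = 0.977 by edgeR) over SP12wk and 0.79 (SE 0.70) over LP. Col1a2 had no count in LP_1, LP_3, SP12wk_2 and SP12wk_3 and 41.5 to 169.6 CPM in the other 8 libraries, which came from all 3 groups. Dcn likewise had no count in 2 LP and 2 SP12wk libraries, and was at 79.0, 41.5, 57.1 and 104 CPM in SP28wk, with a log2 fold change of 1.20 (SE 0.92) in SP12wk against LP. Col1a1 had 8 counts in LP, 3 in SP12wk and 3 in SP28wk. Its ratio to LP was 0.325 in SP12wk (95% counting interval 0.0556 to 1.36) and 0.219 in SP28wk (0.0374 to 0.912). These intervals cover counting error only, not the spread between animals. By edgeR, SP28wk against LP gave a log2 fold change of -1.59 (interval -3.61 to 0.43, adjusted p = 0.749). Timp1 had no count in LP, 2 in SP12wk and 3 in SP28wk, all at or under 3 counts a group, and Fbn1, of the microfibrils, had 1, 2 and 1. Col8a1 had 4 counts in LP and 2 in SP12wk, a ratio of 0.434 (95% counting interval 0.0393 to 3.03). Adamts15 had 4 counts in LP and 2 in SP28wk, a ratio of 0.292 (95% counting interval 0.0264 to 2.04).

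**Figure D4:**
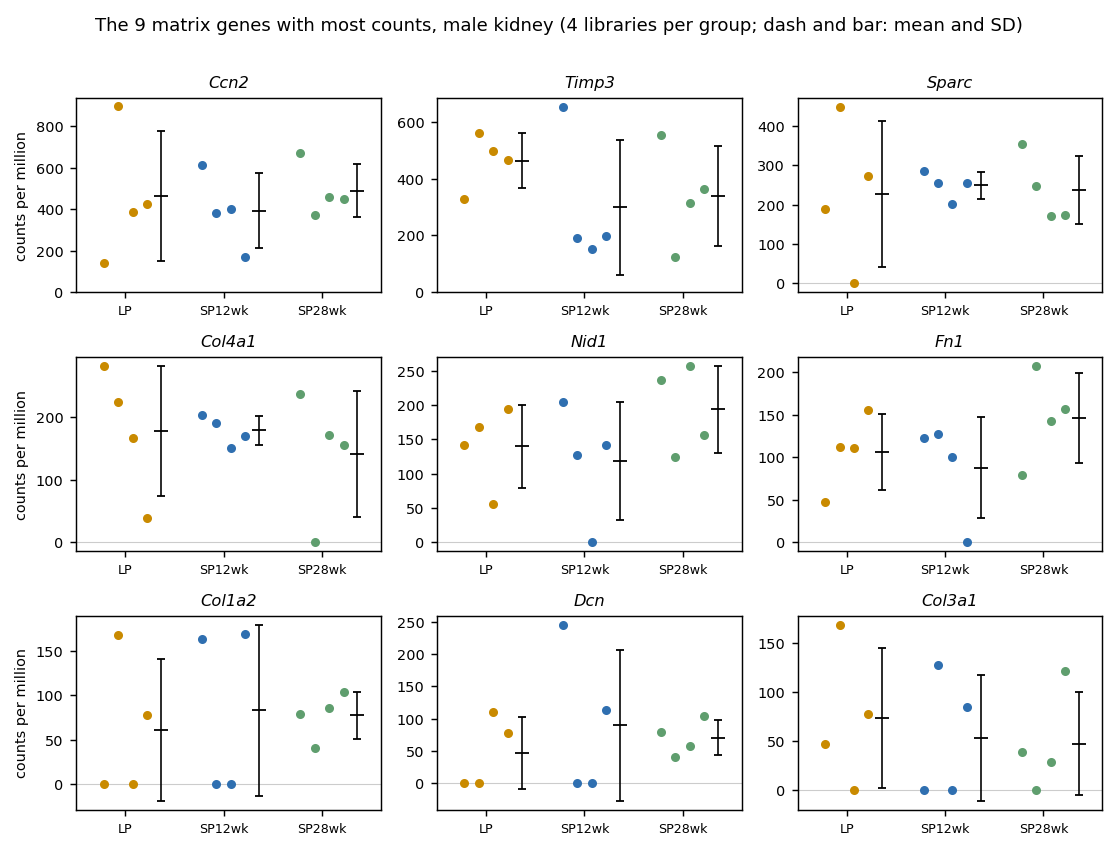
CPM (y axes) in the 4 LP, 4 SP12wk and 4 SP28wk libraries of the 9 matrix genes with most counts in the male kidney; points are libraries, and the dash with its bar is the group mean with SD, whose lower end falls below 0 where libraries had no count. The groups overlap in each panel, and the Timp3 value of SP12wk_1, 654 CPM, stands far above the other 3 of its group.

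**Figure D5:**
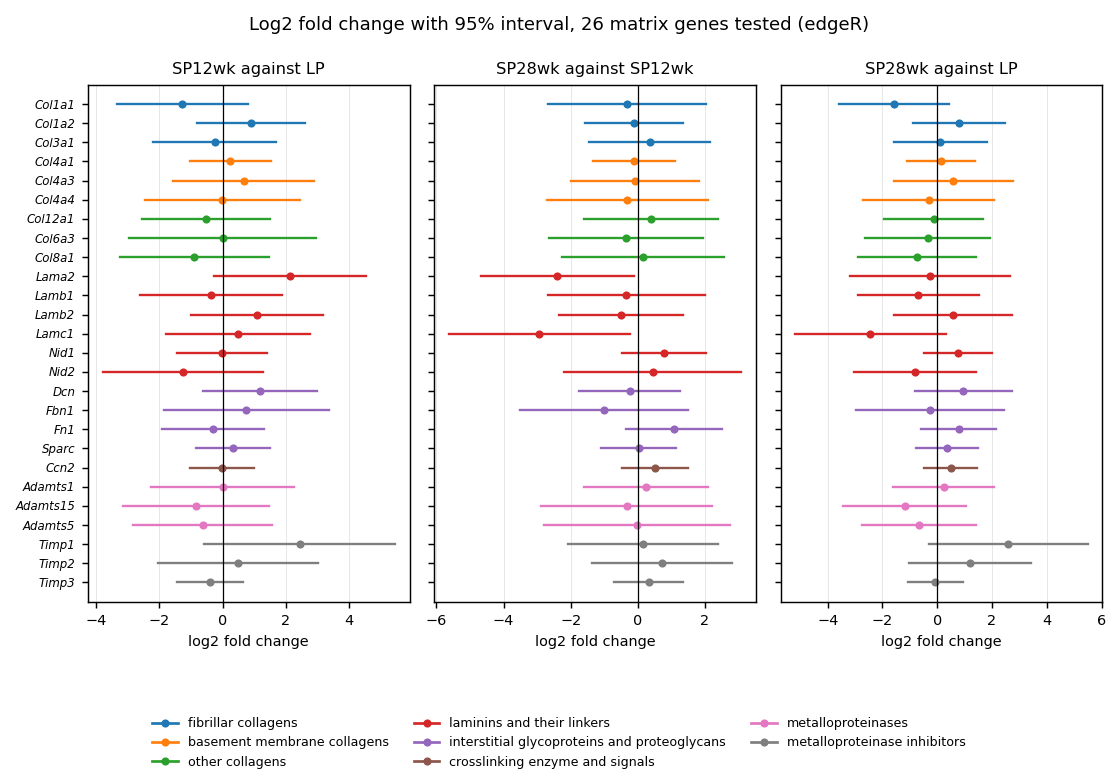
Log2 fold change (x axes) with its 95% interval for the 26 matrix genes tested by edgeR in each comparison of the male groups, ordered and coloured by role. Most intervals span several log2 units and cross 0, and those of Lamc1 and Lama2 in SP28wk against SP12wk, each from fewer than 9 counts, lie below 0 before adjustment.

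Of the 84 matrix genes, 46 had counts in both experiments. Pooled over libraries, 34 of them were at a higher CPM in experiment 1 and 12 at a lower one, with a median ratio of 2.07. The other 38 genes, with counts in experiment 2 alone, are not in that tally. They had no count in experiment 1, which at that depth allows up to 11.5 CPM (95% counting interval). The highest of them in experiment 2, Col18a1, was at 10.7 CPM, so no direction can be given for them. A single count in the shallower male libraries was worth 3.12 CPM when pooled, so leaving these genes out raises the ratios. The tally therefore gives no direction for the matrix genes as a whole. The transcript with most counts was picked within each experiment and differed between them for some genes, Mmp24 among them, but not for Ccn2, Nid1 or Dcn. Over all libraries Mmp24 was at 6.24 CPM in the males, from 2 counts (95% counting interval 0.757 to 22.6), and at 42.3 CPM in the females, from 190 counts (36.5 to 48.7). Ccn2, in contrast, was at 437 CPM in the males (368 to 516) and 211 CPM in the females (198 to 225), and Nid1 at 159 CPM (119 to 209) and 29.4 CPM (24.6 to 34.8). Dcn was at 78.0 CPM and 81.4 CPM. Sex, photoperiod history, injection and flow cell differed together between the experiments, so their parts cannot be told apart, and the intervals cover counting error only.

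Whether genes whose proteins assemble or lie together in the matrix varied together from animal to animal was compared for 8 pairs over the 12 female libraries on log2(CPM + 1) values. Col1a1 and Col1a2 had the highest correlation, with Pearson's r of 0.644 (permutation p = 0.0252, adjusted p = 0.202 over the 8 pairs) and Spearman's rho of 0.643 (permutation p = 0.0277, adjusted p = 0.129). The r was 0.776 without PRL_1 and SAL_6, the libraries farthest from the median of Col1a1, and 0.630 within SAL and 0.826 within PRL. With SAL_6 alone left out it was 0.820, with an adjusted permutation p of 0.0153. Col4a3 and Col4a4 had an r of 0.535 (permutation p = 0.0757, adjusted p = 0.303; rho 0.573, permutation p = 0.0554, adjusted p = 0.129), with 0.446 without PRL_3 and PRL_6, 0.467 within SAL and 0.799 within PRL.

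Col4a1 and Col4a2 had an r of 0.430 (permutation p = 0.163, adjusted p = 0.435; rho 0.580, permutation p = 0.0519, adjusted p = 0.129), which went to 0.209 without SAL_5 and PRL_2. Leaving out single libraries gave values from 0.331, without PRL_4, to 0.761, without SAL_3, where the adjusted permutation p was 0.0713. The other 5 pairs, Dcn with Lum, Lamb2, Lamb1 and Nid1 with Lamc1, and Col1a2 with Col3a1, had r from -0.285 to 0.353, and adjusted permutation p from 0.442 to 0.809. Among these, Dcn and Lum had a rho of 0.559 (permutation p = 0.0643, adjusted p = 0.129) beside an r of 0.353, and Lamb2 and Lamc1 an r of 0.806 within PRL beside 0.337 over all libraries. With all 12 libraries, no pair passed the adjustment over the 8 pairs, and the scarcer partner had 21 to 152 counts in all, so counting error alone limits these values.

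Genes that fold, crosslink, bind or cut the matrix outside these families were read from 4 lists. In PRL against SAL, 0 of 16 tested genes of collagen folding, processing and crosslinking were called by edgeR, 0 of 14 of TGF-beta signalling, 0 of 11 matrix receptors and 0 of 11 other matrix proteases and regulators, with p under 0.05 before adjustment for 2, 0, 1 and 2 of them (4.88% of all genes), all higher in PRL (2.54% of all genes). From the smallest p by edgeR to the largest, these were Itgb6, Ctsk, Loxl4, Plat and Serpinh1. Serpinh1, the collagen chaperone HSP47, was at 58.7 ± 18.9 CPM in PRL and at 36.6 ± 15.8 CPM in SAL (SD, n = 6), a log2 fold change of 0.65 (SE 0.29, adjusted p = 0.946 by edgeR). Ctsk, the collagen-cutting cathepsin K, was at 14.3 ± 4.83 CPM in PRL and at 4.98 ± 4.04 CPM in SAL, a log2 fold change of 1.45 (SE 0.52, adjusted p = 0.615 by edgeR). DESeq2 called 0 genes of the 4 lists and gave p under 0.05 to 2, 0, 1 and 2 of them, although it gave no adjusted p for 14 of 16, 14 of 14, 10 of 11 and 6 of 11.

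In the males the same lists had 2, 12, 6 and 7 genes tested, and both tools called 0. Before adjustment, edgeR gave p under 0.05 to 2 of these genes in SP12wk against LP (7.26% of all genes), to 4 in SP28wk against LP (8.57%) and to 1 between the short-day groups (6.1%), and DESeq2 to 1, 3 and 1. The smallest p was that of Bsg, basigin, a membrane protein that induces MMPs, in SP28wk against LP. It was at 33.3 ± 39.5 CPM in LP, from 3 counts, and 221 ± 152 CPM in SP28wk (SD, n = 4). Its p by edgeR was 0.000628, and 0.118 after adjustment. All 6 tested matrix receptors had a lower fitted value in each short-day group than in LP, comparisons that share the LP libraries. Their median log2 fold change was -1.30 in SP12wk and -1.07 in SP28wk, where 2670 and 2108 of all 5086 genes were lower. Of these receptors only Dag1, dystroglycan, a laminin receptor, had p under 0.05 by edgeR before adjustment. DESeq2 gave such a p to 0 of the 6 in either comparison with LP. LP libraries averaged 398 ± 381 CPM, those of SP12wk 99.9 ± 25.8 CPM and those of SP28wk 89.5 ± 66.7 CPM (SD, n = 4). Against LP its log2 fold change was -1.55 in SP12wk (SE 0.64, adjusted p = 0.603 by edgeR) and -1.50 in SP28wk (SE 0.61, adjusted p = 0.493 by edgeR). In PRL against SAL, 4 of the 11 tested matrix receptors had a higher and 7 a lower fitted value.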

How the data were processed

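The authors took nanopore cDNA reads of 24 hamster kidneys through Guppy (basecalling), Porechop (adapters), Filtlong (quality) and minimap2, which placed them on mouse RefSeq transcripts. The deposited values are estimated counts per transcript, not scaled to library size, and the submitters' processing notes also name Salmon. No source used here says how a read was shared among transcripts. The labels call the kit PCR-cDNA and the methods direct cDNA. Mouse was the reference for hamster reads, so a diverged transcript can be undercounted.

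Each gene was represented by its transcript with the highest total in that experiment, since sums over transcripts may count a read several times. CPM was the count divided by the library total of those rows. All 24 value columns were used. In R 4.3.3, rounded counts were fitted with the quasi-likelihood test of edgeR 4.0.16 (TMM, no covariate, 1 model per experiment). A gene was tested if 4 or more of 12 male libraries, or 6 or more of 12 female libraries, had a count of it. Benjamini-Hochberg adjustment ran over all genes tested, with a threshold of 0.05. The standard error was the size of the log2 fold change divided by the square root of F. Ratios of few counts have exact binomial 95% intervals, which cover counting error only. Correlations used 100000 permutations, two-sided. DESeq2 1.42.0, other scalings, filters, summed transcripts, a replicate block and leaving out each library were the alternatives. Tests were checked on simulated counts with known changes. For SP12wk against LP, edgeR called 1 of 43 genes changed 2-fold and 7 of 43 changed 4-fold. For PRL against SAL it called 9 of 49 and 33 of 46. The same run also called 42 of 47 genes changed 8-fold and 41 of 45 changed 16-fold, with 9 false calls over the whole run.

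Fold changes are named for the 3 genes with the smallest p in each direction of a comparison, with a part given as counts alone. Values are given for the 5 genes with most CPM in each role, or by range, and many of these genes also have a fold change. The genes, roles, lists and pairs were chosen with earlier results of these data known. Replicates are separate animals per the methods. Within groups, libraries differed by more than counting error (chi-square over its degrees of freedom 1.89 to 10.1), and none was counted as a repeat of another.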

Additional observations from a re-analysis of the deposited data

Results flagged for a closer look

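In 130 groups of 4 or 6 values with more than 3 counts, 7 held a library far from the rest by Dixon's criterion, which chance gives for about 1 in 20 groups. Timp3 in SP12wk was at 654 CPM in SP12wk_1, from 16 counts, where the other 3 libraries reached at most 198 CPM. The other 6 rest on 2 to 9 counts in the far library. In SAL they were Col14a1 at 13.7 CPM, where the others reached 1.88 CPM, and Col6a1 at 9.18 CPM, where the others reached 3.20 CPM. In PRL they were Col14a1 at 5.67 CPM (others up to 1.67 CPM), Col6a1 at 13.8 CPM (up to 3.95 CPM), Col8a1 at 15.8 CPM (up to 5.02 CPM) and Fbn1 at 25.5 CPM (up to 5.29 CPM).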

How the results depend on the processing

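The count of matrix genes called stayed at 0 in all 95 combinations of comparison and alternative, and the lowest adjusted p of any of them was 0.435 for SP12wk against LP, 0.529 for SP28wk against LP, 0.673 for SP28wk against SP12wk and 0.439 for PRL against SAL. For the genes picked by the smallest p in each direction of a comparison, the 414 alternative log2 fold changes kept their direction. Other genes given with a fold change above did not all do so. In PRL against SAL, Dcn ranged from -0.16 to 0.10, Sparc from -0.07 to 0.23 and Ccn2 from -0.02 to 0.25. Over all genes the calls ranged from 0 to 9, 0 to 11 and 0 to 56 in the 3 comparisons of males (1, 7 and 11 as reported) and from 0 to 92 in PRL against SAL (0 as reported), the 92 without a filter. With library totals only, the median over all genes was -0.17, 0.01 and -0.16 in place of 0.00, 0.16 and 0.18, and 9 matrix genes were higher and 17 lower in SP28wk against LP in place of 13 and 13. Leaving out each library, r ranged from 0.559 to 0.820 for Col1a1 and Col1a2, passing the threshold without SAL_6, from -0.250 to 0.0586 for Col1a2 and Col3a1, turning sign without SAL_6, and from -0.0278 to 0.437 for Lamb1 and Lamc1, turning sign without PRL_6. The cause was not tested.

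Deviations of samples with the same replicate number had correlations from -0.0690 to 0.121 in experiment 1 and from -0.105 to 0.153 in experiment 2. For samples of other numbers they ran from -0.143 to 0.147 and from -0.155 to 0.134. The ranges were much alike, so no pairing by number was seen in these values. With the number as a replicate block, 0 matrix genes were called in each comparison, and 52 of all genes were called in PRL against SAL in place of 0.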
